A study of Mus musculus with 9 samples.

Results

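The genes described here are 44 genes of the cell division cycle, 24 that act in DNA replication or in entry into S phase and 20 that act in mitosis. They were chosen by symbol, as rows of the deposited tables of 50600 genes, with earlier results of these libraries known. All 44 passed the filter on low values, which kept the 16208 genes that reached a TPM of 1 in any library (TPM is a measure per length of transcript with an equal sum over genes in each library). The smallest number of reads for any member in any library was 47, for Gins1.

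RNA was sequenced from 9 mouse cultures in 3 groups of 3 numbered replicates. Organoids, which are epithelial cultures grown in a gel from the crypts of the small intestine, came from mice with no Apc mutation, 2 to 5 months old (strain labelled C57BL/6, although the methods of the study call the background of its mice mixed), and were kept for 24 hr in conditioned medium after a passage. The medium came either from tumoroids (T-cM) or from organoids of normal tissue (WT-cM), was cleared of vesicles, and was mixed with an equal volume of fresh medium. Tumoroids, grown without R-spondin from intestinal tumours of Apc1638N/+ mice older than 6 months (strain given as MIX), were untreated. The titles and the treatment fields of the 6 organoid libraries name opposite media, so the groups are named after the titles alone, as WT-cM-titled or T-cM-titled organoids, and every direction between them turns round if the treatment field is right. Tumoroids differed from organoids in Apc genotype, labelled strain, age of the mice and medium at once, and these cannot be told apart. Reads of Apc were counted at 103 to 171 CPM in organoids (counts scaled to the normalised library size) and at 79.4 to 124 CPM in tumoroids, and such counts do not separate a mutant allele from a normal allele. Whether the replicates came from separate mice is not given in the labels, while the methods of the study state for its experiments in general that lines came from at least 3 mice, and p-values measure the spread between these cultures.

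A dividing cell first loads the MCM helicase onto replication origins with CDC6 and CDT1. In S phase, CDC45 and the GINS complex complete the helicase, polymerases and primase copy the DNA with the sliding clamp PCNA, and ribonucleotide reductase and thymidylate synthase supply deoxynucleotides. Cyclin D1 and cyclin E drive the step from G1 into S phase and release E2F factors, which switch on many replication genes. Genes of mitosis are switched on later, in G2, largely through the MuvB complex, which binds a short element called CHR, together with NF-Y at CCAAT boxes. In the intestine, cells divide in the crypts and stop dividing as they become enterocytes on the villi.

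The promoter sequences of the members show these classes of elements side by side. Sequences were taken from RefSeq (GRCm38.p6), whose promoter table held 35 of the 44 members, 18 replication and 17 mitosis genes, as windows of 250 bases before to 50 bases after the start of the gene. Searched on both strands were an E2F motif (TTTCCCGC, TTTCGCGC, TTTGCCGC or TTTGGCGC), the CHR element (TTTGAA) and the CCAAT box (CCAAT). Members were counted as genes with a match in any of their windows (Mcm7 has 2 windows, the others 1), and the shares for comparison are of all 32851 windows of the table. The E2F motif was in 8 of 18 replication and 1 of 17 mitosis genes, and in 2.26% of all windows. The CHR letters were in 2 of 18 replication and 13 of 17 mitosis genes (17.9% of all), and each of them also held CCAAT, a combination found in 6.95% of all. CCAAT was in 12 of 18 and 16 of 17, against 37.4% of all. These are matches of letters, not measured binding. The 150 bases before the start are shown for 3 replication genes with an E2F match and for 4 mitosis genes with a CHR match there, because their levels are described next. They are written 5′ to 3′ on the strand of the gene, with every match in capitals. A match on the other strand appears as its reverse complement (GCGCCAAA, ATTGG or TTCAAA, for example), and the first 2 E2F matches of Mcm6 overlap. In Mcm5 an E2F match that starts 3 bases before the stretch overlaps the first match shown, and the leading C is a letter of it.
Mcm5 (chr8:75109359-75109508, plus strand): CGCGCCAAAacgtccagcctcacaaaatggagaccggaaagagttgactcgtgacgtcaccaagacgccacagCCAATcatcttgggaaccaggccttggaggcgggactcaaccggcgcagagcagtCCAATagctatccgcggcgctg
Mcm6 (chr1:128359706-128359855, minus strand): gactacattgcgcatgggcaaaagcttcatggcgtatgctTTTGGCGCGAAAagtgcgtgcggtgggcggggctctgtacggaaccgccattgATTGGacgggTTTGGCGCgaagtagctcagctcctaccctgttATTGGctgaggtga
Pola1 (chrX:93632156-93632305, minus strand): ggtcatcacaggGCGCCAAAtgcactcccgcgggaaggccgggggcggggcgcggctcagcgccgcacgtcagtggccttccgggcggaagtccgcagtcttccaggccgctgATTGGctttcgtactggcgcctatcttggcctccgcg
Cdk1 (chr10:69352913-69353062, minus strand): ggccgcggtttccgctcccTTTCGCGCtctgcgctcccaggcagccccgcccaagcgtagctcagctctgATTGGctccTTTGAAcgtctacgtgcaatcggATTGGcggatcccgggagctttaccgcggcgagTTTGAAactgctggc
Top2a (chr11:99024190-99024339, minus strand): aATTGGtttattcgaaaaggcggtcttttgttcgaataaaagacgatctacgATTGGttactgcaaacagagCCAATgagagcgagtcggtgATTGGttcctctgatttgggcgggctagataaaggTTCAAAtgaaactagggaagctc
Kif11 (chr19:37376232-37376381, plus strand): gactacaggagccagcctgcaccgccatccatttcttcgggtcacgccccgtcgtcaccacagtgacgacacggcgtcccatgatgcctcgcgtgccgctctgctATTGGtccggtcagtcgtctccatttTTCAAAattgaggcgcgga
Cdc20 (chr4:118437344-118437493, minus strand): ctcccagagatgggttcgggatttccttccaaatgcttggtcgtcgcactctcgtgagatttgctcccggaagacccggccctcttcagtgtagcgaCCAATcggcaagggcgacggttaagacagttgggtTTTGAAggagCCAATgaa
The replication promoters shown hold E2F and CCAAT letters and no CHR, Cdk1 holds all of these elements, and Top2a, Kif11 and Cdc20 hold CHR and CCAAT letters and no E2F.

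The gene counts of a library summed to between 16541635 and 25170966 reads, and 3 counts, taken as the detection limit, stood for 0.103 to 0.204 CPM. That limit covers counting error only, since reads carry no molecular identifiers. Each library expressed epithelial genes, with a summed level of 5375 to 8837 CPM over 6 epithelial markers. Of the 5 fibroblast markers, none passed the filter and their sum was at most 0.687 CPM in any library, while immune markers summed to at most 21.2 CPM and smooth muscle markers to at most 46.1 CPM, each in a tumoroid library. Endothelial markers summed to at most 3.85 CPM, and Col3a1 (fibroblasts), Kdr (endothelium) and Cd3e (T cells) were at 0 counts in every library, which allows up to 3 counts in each. Enterocyte markers summed to 15432 to 30268 CPM in organoids and to 35.7 to 264 CPM in tumoroids, and crypt stem cell markers to 69.1 to 314 CPM in organoids and 488 to 655 CPM in tumoroids.

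Organoids titled T-cM had slightly lower levels of nearly the whole set than their same-numbered WT-cM-titled partners. At an adjusted p under 0.05, 9 of 24 replication genes and 14 of 20 mitosis genes were lower and 0 were higher, where 5.05% of all tested genes were lower and 5.03% higher (edgeR's quasi-likelihood test with the replicate number as a block, Benjamini-Hochberg adjustment over all 16208 genes). The median log2 fold change was -0.28 for replication genes and -0.35 for mitosis genes, against 0.00 for all genes. None of the 44 moved by a log2 fold change of more than 1 in either direction, whereas 1.10% of all genes passed both thresholds. In RNA from whole cultures, fewer dividing cells and less RNA of these genes per cell cannot be told apart.

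All 3 genes of nucleotide supply were lower. Tyms, thymidylate synthase, was at 43.7, 19.1 and 14.3 CPM in T-cM-titled replicates 1, 2 and 3 and at 53.5, 34.2 and 30.2 CPM in WT-cM-titled replicates 1, 2 and 3. Each T-cM-titled library was below its partner, by the most in pair 3, and the groups overlapped, with both libraries numbered 1 the highest. Its log2 fold change of -0.70 ± 0.12 (SE) was the lowest of the 44 (adjusted p = 0.000139, edgeR). Rrm2, the regulated subunit of ribonucleotide reductase, was at 88.2, 36.6 and 34.9 CPM against 97.6, 57 and 50.7 CPM (log2 fold change -0.42 ± 0.10 (SE), adjusted p = 0.00394, edgeR), and Rrm1, its catalytic partner, had a log2 fold change of -0.30. Here too each number 1 library lay above all libraries numbered 2 and 3.

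Of the polymerase and primase genes, Pola1 and Prim1 were lower and Pole did not pass. Pola1, the catalytic subunit of the polymerase that starts each new strand, was at 23.2, 9.84 and 8.12 CPM against 32, 15.8 and 12 CPM. It was lower in each pair, with overlap between the groups (log2 fold change -0.55 ± 0.12 (SE), adjusted p = 0.00208, edgeR). Prim1, the primase that makes the RNA primer, had -0.37 and Pole -0.23.

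The 6 MCM helicase genes had log2 fold changes between -0.35 and -0.20, were lower in all 3 pairs without exception, and Mcm3 and Mcm5 passed the test. Mcm5, with the E2F match shown, was at 105, 41.4 and 41.8 CPM against 129, 60.3 and 50.2 CPM, the widest gap being in pair 2 (adjusted p = 0.00892, edgeR). Mcm2 was at 79.3, 29.6 and 31.5 CPM against 94, 37.9 and 37.8 CPM, with a log2 fold change of -0.27 ± 0.09 (SE) and an adjusted p of 0.0512 by edgeR, just outside the threshold. Of the factors that complete the helicase, Gins2 was lower (-0.52 ± 0.13 (SE) on the log2 scale), while Gins1 (-0.47) and Cdc45 (-0.25) did not pass. Gins2 is uncertain as a gene, since 2758 of its 4097 exonic bases lie under exons of Gse1 on the other strand and the strand setting of the count is not given.

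A few replication genes had values near or above 0, and their difference from the other members was not tested. Pcna, the sliding clamp, was at 191, 176 and 176 CPM against 199, 170.5 and 165 CPM, a nearly level profile over all 6 organoid libraries. Its log2 fold change was 0.04 ± 0.08 (SE), with a 95% interval of -0.11 to 0.19. The licensing factors Cdt1 (0.07) and Cdc6 (-0.11) did not pass either, and neither was lower in all 3 pairs. Of the regulators of S phase entry, Ccnd1 had a log2 fold change of 0.14 and was below its partner in 1 pair. Ccne1 (-0.21), Ccne2 (-0.33) and E2f1 (-0.36) were on the lower side in all 3 pairs, the last 2 below the list median, and 0 of these 4 regulators passed (adjusted p = 0.139 for Ccne2 and 0.106 for E2f1, edgeR). The clamp loader gene Rfc4 was lower (-0.37) and Rfc3 did not pass (-0.14). On the other strand, exons of Ints8 cover 609 of the 3495 exonic bases of Ccne2, and exons of Eif4a2 cover 194 of the 1533 of Rfc4.

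**Figure D1:**
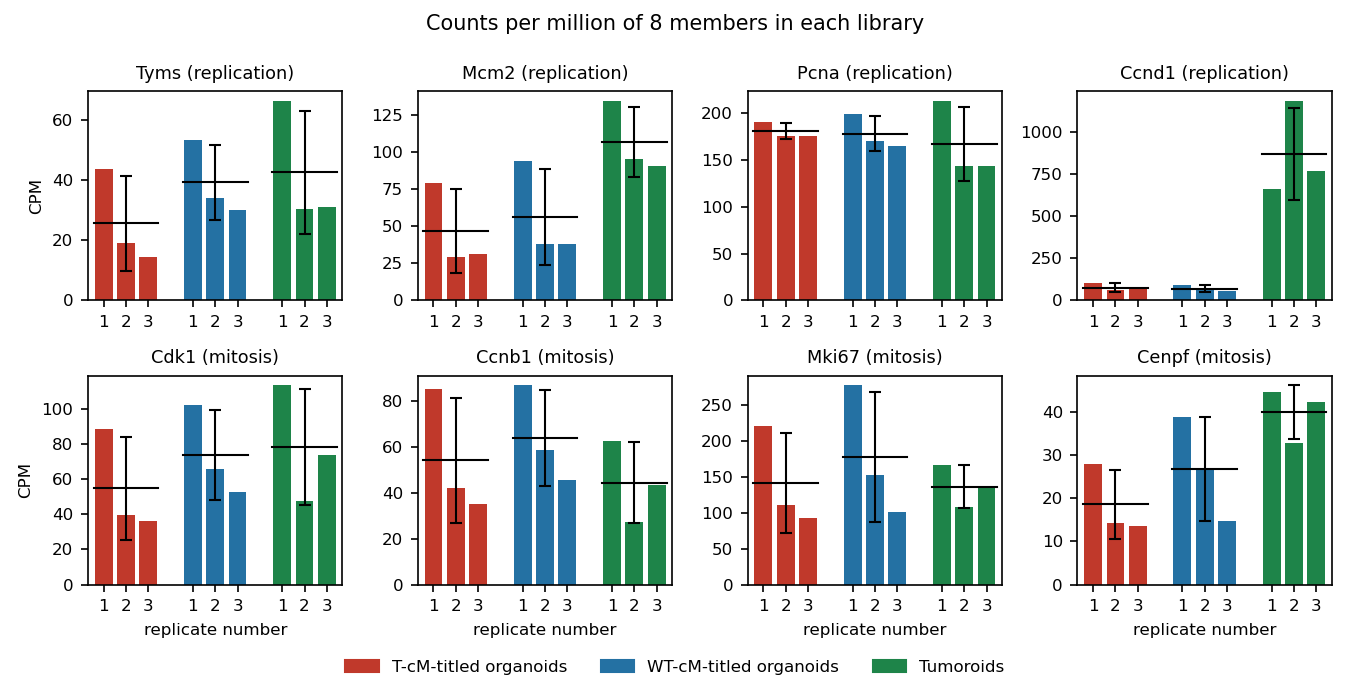
CPM of 8 members (vertical axes, each from 0) in the 9 libraries, by replicate number. Bars are libraries, horizontal lines group means and error bars SD (n = 3), and the number 1 bars are the tallest of their organoid group in every panel, with Pcna the flattest and Ccnd1 the only panel in which the tumoroids stand far above the organoids.

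Among mitosis genes, the 4 mitotic kinases were all lower. Cdk1, the kinase that drives entry into mitosis, was at 88.8, 39.4 and 36.4 CPM in T-cM-titled replicates 1, 2 and 3 against 102, 65.9 and 52.6 CPM in their WT-cM-titled partners. It was lower in every pair, with overlap between the groups (log2 fold change -0.47 ± 0.10 (SE), adjusted p = 0.00124, edgeR). Aurkb, of the complex that corrects chromosome attachment, had -0.47, Aurka, of the spindle poles, -0.31, and Plk1, which acts in spindle assembly and cytokinesis, -0.31. Birc5, the survivin subunit of the same complex as Aurkb, had -0.34 and also passed.

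Mki67, the proliferation antigen Ki67 that coats mitotic chromosomes, was at 220.5, 110.2 and 92.1 CPM against 276, 152 and 101 CPM. It was lower in each pair, least so in pair 3 (log2 fold change -0.30 ± 0.08 (SE), adjusted p = 0.016, edgeR). Top2a, the topoisomerase that untangles sister chromatids, was at 254, 108 and 101 CPM against 318, 171 and 112 CPM, with -0.37 ± 0.09 (SE) and an adjusted p of 0.00495 by edgeR. Pair 2 had its widest gap, as it had for most members. Cenpf, a large kinetochore protein, had the lowest mitosis value, at -0.49 ± 0.12 (SE), from 27.9, 14.3 and 13.7 CPM against 38.9, 27 and 14.7 CPM.

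Of the cyclins, Ccna2 (-0.44) and Ccnb2 (-0.35) were lower, while Ccnb1, at 85.3, 42.2 and 35.1 CPM against 86.8, 58.7 and 45.8 CPM, did not pass (-0.27 ± 0.09 (SE), adjusted p = 0.0625, edgeR). Pair 1 of Ccnb1 was nearly level and pairs 2 and 3 were lower. Cdc20, which activates the ubiquitin ligase that ends mitosis, did not pass (-0.21). The checkpoint kinases Bub1 (-0.44) and Bub1b (-0.37) were lower and Ttk (-0.36) did not pass. Of the motor proteins, Kif11 (-0.39) and Kif20a (-0.42) were lower. Kif23, a motor of the central spindle, was at 69.8, 38.5 and 34.9 CPM against 62, 37.6 and 32 CPM and was the 1 member higher in all 3 pairs, with a log2 fold change of 0.13 ± 0.09 (SE) that did not pass (adjusted p = 0.479, edgeR). Of the 4338 exonic bases of Kif20a, 1271 lie under exons of Cdc23 on the other strand, and of the 4083 of Ccna2, 510 lie under exons of Exosc9.

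**Figure D2:**
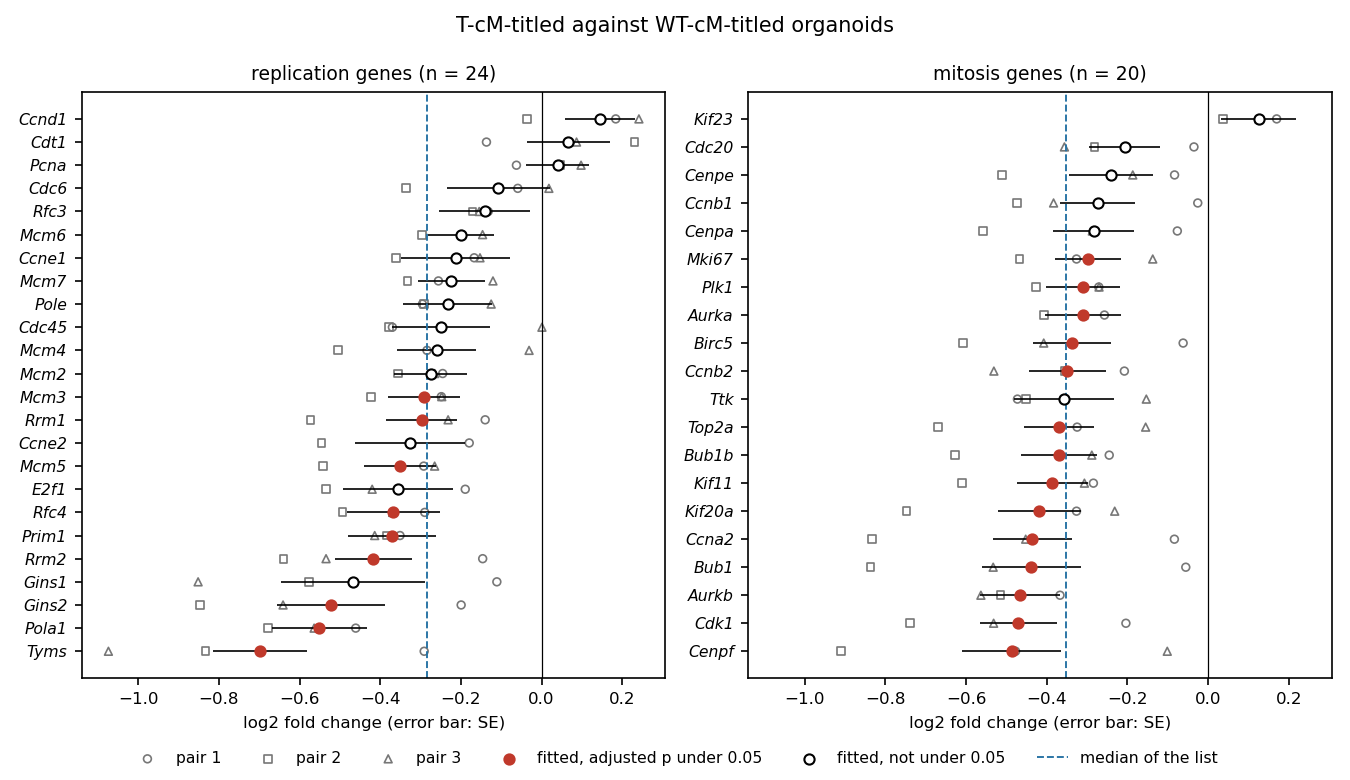
Log2 fold changes (horizontal axes) of each member in T-cM-titled over WT-cM-titled organoids, fitted with SE (circles with bars) and in each pair (open grey symbols). Filled circles passed an adjusted p of 0.05, dashed lines are the list medians of -0.28 and -0.35, and the pair 2 symbols lie farthest left for most members.

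Over pairs, 19 of 24 replication genes and 19 of 20 mitosis genes were lower in the T-cM-titled library in all 3 pairs, as were 22.3% of all genes. The median difference was -0.20, -0.40 and -0.24 in pairs 1, 2 and 3 for replication genes, and -0.23, -0.54 and -0.30 for mitosis genes, so that pair 2 showed the widest gap in each list. The difference was smaller than the spread between cultures: for 0 of the 44 genes did every T-cM-titled library lie below every WT-cM-titled library, which held for 5.28% of all genes. Fitted without the replicate block, 0 of the 44 and 0 of all genes passed, and 0 of the 44 had an unadjusted p under 0.05 (904 of all genes did). With the block, DESeq2 kept 4 and 7 and limma voom 4 and 3 of the 9 replication and 14 mitosis genes, where 674 and 581 of all genes passed, against 1634 by edgeR. Without pair 2, 0 members and 1 of all genes passed by edgeR, and 18 members, 9 in each list, and 1557 of all genes had an unadjusted p under 0.05, while 22 of 24 and 19 of 20 were still on the lower side. Crypt stem cell markers were at 214, 69.1 and 72.9 CPM in T-cM-titled replicates 1, 2 and 3 and 314, 82.0 and 98.7 CPM in their WT-cM-titled partners, and their part in the result was not tested. Enterocyte markers, at 17209, 25021 and 26759.5 CPM against 15432, 29682 and 30268 CPM, summed to less in the T-cM-titled library in pairs 2 and 3 and to more in pair 1. Of the 6 enterocyte markers, Alpi was higher (log2 fold change 0.75) and Fabp1 lower (-0.61), and of the 5 crypt stem cell markers, Ascl2 (-0.66) and Smoc2 (-0.61) were lower.

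The largest differences in these genes among organoids lay between culture numbers, not between media. In all 44 members, both libraries numbered 1 were above all 4 libraries numbered 2 and 3, an order seen in 20.4% of all genes. The ratio of number 1 to the others, taken as geometric means, had a median of 2.15 over replication and 2.01 over mitosis genes. It ranged from 1.14 (Pcna) to 2.88 (Pole) in the first list and from 1.73 (Ccnb2) to 2.36 (Top2a) in the second. By role, the MCM genes had a median ratio of 2.41, the polymerase and primase genes 2.44, the licensing factors 1.87 and the clamp with its loaders 1.67. In number 1 cultures, enterocyte markers were lower, at 15432 and 17209 CPM against 25021 to 30268 CPM in the others, and crypt stem cell markers were higher, at 214 and 314 CPM against 69.1 to 98.7 CPM. Their part in the result was not tested, and with 2 libraries of this number the ratio is given without a test.

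Tumoroids had a higher median level of replication genes than organoids while the median of mitosis genes changed sign with the libraries used, and few members of either list passed the test. Against the mean of all organoids, 6 of 24 replication genes and 1 of 20 mitosis genes were higher at an adjusted p under 0.05 and 0 were lower, where 29.6% of all genes were higher and 20.8% lower (edgeR's quasi-likelihood test over 9 libraries, Benjamini-Hochberg). The share of 6 in 24 is no larger than that background in this fit and the count moved with the libraries and the model. The fit takes the 6 organoid libraries as independent, although same-numbered ones deviated together (r of 0.34 to 0.55 for the 3 organoid pairs). The median log2 fold change was 0.64 for replication and -0.03 for mitosis genes, against 0.16 for all genes. With 1 library left out the replication median ran from 0.34 (without tumoroid 1) to 0.90 (without T-cM-titled replicate 1). The mitosis median ran from -0.33 (without tumoroid 1, when 16 of 20 mitosis genes were below 0) to 0.24 (without tumoroid 2), so that its direction is not settled by these libraries. With a fold change threshold of 1 on the log2 scale, 4 replication genes and 0 mitosis genes were called, where 21% of all genes were called higher and 33.1% in either direction. The 0 for mitosis genes stands beside 1 gene (Cenpf) with an unadjusted p under 0.05 by edgeR, which 9144 of all 16208 genes had. DESeq2 and limma voom also put 1 mitosis gene past an adjusted p of 0.05, where 8361 and 8179 of all genes passed. Enterocyte markers were far lower and crypt stem cell markers higher in tumoroids (the sums given before), and their part in these values was not tested.

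Ccnd1, which encodes cyclin D1 and lies at chr7:144929931-144939925 of the mm10 build on the minus strand, was the member with by far the widest gap. It was at 663, 1184 and 769 CPM in tumoroids 1, 2 and 3, and at 105, 60.0 and 66.2 CPM in the T-cM-titled replicates and 92.2, 61.5 and 56 CPM in their WT-cM-titled partners. All tumoroids were above all organoids, and tumoroid 2, which was low in most other members, was the highest here. The log2 fold change was 3.57 ± 0.25 (SE), or 11.9-fold (adjusted p = 5.55e-06, edgeR). Of its 4709 exonic bases, 1100 lie under exons of LTO1 on the other strand, and the strand setting of the count is not given.

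E2f1, the factor that cyclin D activity sets free, was at 26.3, 18.4 and 19.2 CPM in tumoroids against 13.5, 5.97 and 6.59 CPM and 15.4, 8.69 and 8.86 CPM in the organoid groups. It was the other member whose tumoroid libraries all lay above all organoid libraries, an order that 25.6% of all genes had, and no member had all tumoroids below all organoids, as 20.2% of all genes did (log2 fold change 1.12 ± 0.30 (SE), adjusted p = 0.0107, edgeR). The cyclin E genes did not pass, with 0.28 ± 0.39 (SE) for Ccne1 and -0.19 ± 0.41 (SE) for Ccne2, and their difference from E2f1 was not tested. Ccne1 was at 15.9, 13.1 and 8.86 CPM in tumoroids and at 5.81 to 17.6 CPM in organoids.

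Of the replication machinery, Pola1, Mcm2, Mcm6 and Cdt1 were higher. Pola1 was at 46.1, 31.8 and 35.4 CPM in tumoroids, and 8.12 to 32 CPM in organoids, where the highest value was a number 1 culture (log2 fold change 1.19 ± 0.37 (SE), adjusted p = 0.0237, edgeR). Mcm2 was at 134, 95.7 and 90.7 CPM against 29.6 to 94 CPM, with 1.05 ± 0.38 (SE) and an adjusted p of 0.0412 by edgeR. Mcm6 was at 244, 144 and 170.4 CPM against 65 to 159 CPM (0.92 ± 0.31 (SE)). In each of these 3 genes, WT-cM-titled replicate 1 was the only organoid library above the lowest tumoroid. The other 4 MCM genes had values from 0.53 (Mcm5) to 0.78 (Mcm7) and did not pass. Cdt1, at 77.8, 51.3 and 37.3 CPM against 24.7 to 43.1 CPM, passed with 0.76 ± 0.24 (SE) (adjusted p = 0.0272, edgeR), and Cdc6, its partner in licensing, did not (0.64 ± 0.40 (SE)).

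Pcna, Rrm2 and Ccne2 were the 3 replication genes with a log2 fold change below 0 in tumoroids in the counts, and none passed. On the deposited TPM all 24 replication genes were above 0, and Pcna passed in 1 of 16 alternative settings. Pcna was at 213, 144 and 144 CPM in tumoroids against 165 to 199 CPM in organoids (-0.11 ± 0.15 (SE), approximate interval -0.41 to 0.20). Rrm2, at 69.7, 38.1 and 48.3 CPM against 34.9 to 97.6 CPM, had the lowest value of the list (-0.21 ± 0.35 (SE)). Tyms, at 66.3, 30.6 and 31.2 CPM, had 0.42 ± 0.38 (SE).

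**Figure D3:**
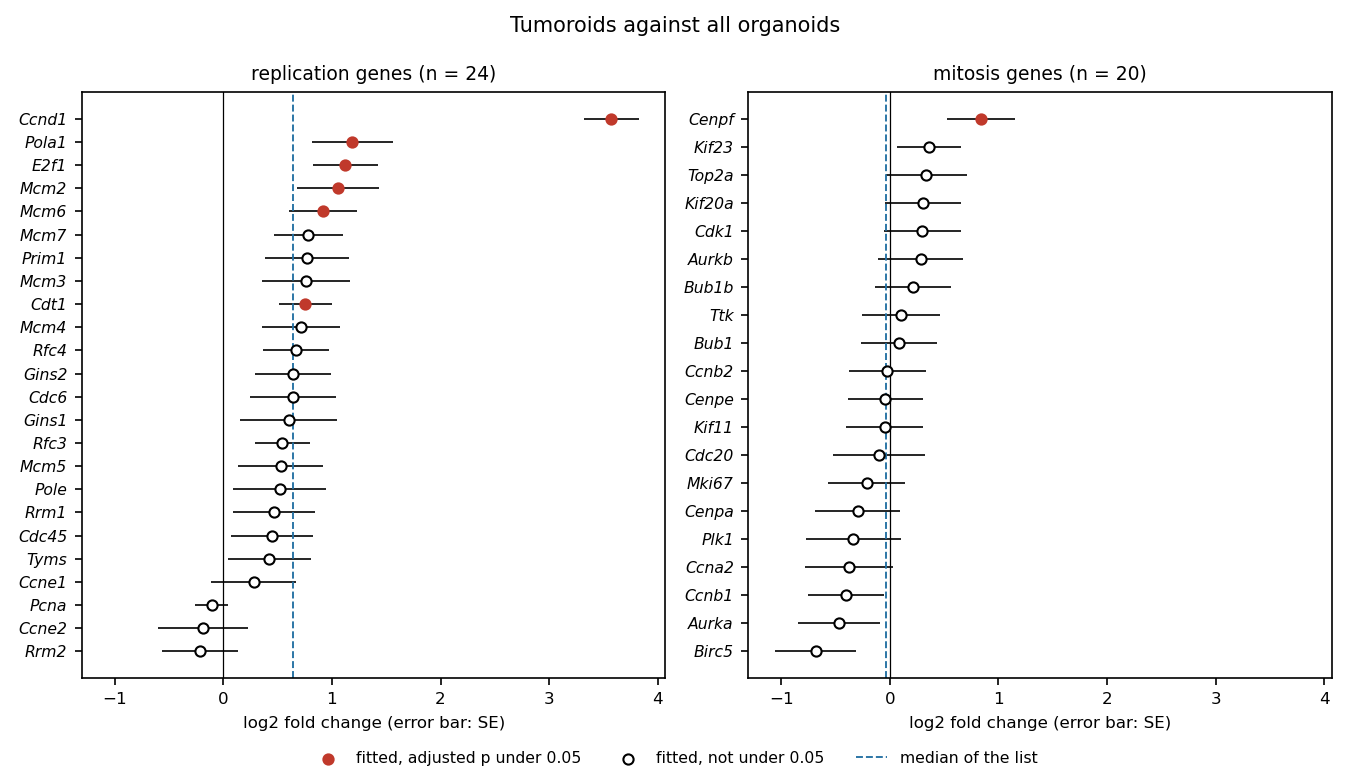
Log2 fold changes (horizontal axes, with SE) of each member between tumoroids and all organoids. Filled circles passed an adjusted p of 0.05, dashed lines are the list medians of 0.64 and -0.03, and all but 3 replication genes lie right of 0 while the mitosis genes lie on both sides in these counts (19 of 20 lie right of 0 on the deposited TPM).

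Cenpf was the mitosis gene that passed, at 44.6, 32.9 and 42.4 CPM in tumoroids against 27.9, 14.3 and 13.7 CPM and 38.9, 27 and 14.7 CPM in the organoid groups. Tumoroid 2 was within the range of the WT-cM-titled libraries (log2 fold change 0.84 ± 0.31 (SE), adjusted p = 0.0483, edgeR). Mki67 was at 166, 107 and 134 CPM in tumoroids and at 92.1 to 276 CPM in organoids, inside the organoid range in every library. Its log2 fold change was -0.21 ± 0.35 (SE), with a 95% interval of -0.91 to 0.48, wide enough to hold a moderate difference in either direction. Cdk1 was at 113, 47.6 and 73.7 CPM against 36.4 to 102 CPM (0.30 ± 0.36 (SE), approximate interval -0.40 to 1.00).

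Birc5, Aurka, Ccnb1 and Ccna2 had the 4 lowest values of the list in the counts, none of which passed, and on the deposited TPM Birc5 alone of the 20 stayed below 0. Ccnb1 was at 62.8, 27.5 and 43.2 CPM against 35.1 to 86.8 CPM (-0.40 ± 0.35 (SE)), and Ccna2 at 124, 42.3 and 89.2 CPM against 63.2 to 171 CPM (-0.38 ± 0.40 (SE)). Birc5, the lowest of the 20, was at 53.9, 21.3 and 30.9 CPM against 35.1 to 85.7 CPM (-0.68 ± 0.37 (SE), adjusted p = 0.156, edgeR), and Aurka had -0.47 ± 0.38 (SE). In all 4 of these genes tumoroid 2 was the lowest of the 9 libraries. Kif23 (0.36) and Top2a (0.34) had the highest values after Cenpf and did not pass. The SE of mitosis genes here ran from 0.30 to 0.43 on the log2 scale, against 0.08 to 0.12 between the paired organoid groups, so that a difference had to be larger here to pass.

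The replication genes had the higher median against each organoid group, and since both comparisons share the 3 tumoroid libraries, they are not separate evidence. Against WT-cM-titled organoids, 1 replication gene (Ccnd1) and 0 mitosis genes were higher at an adjusted p under 0.05 by edgeR, where 23.4% of all genes were (29.8% were called in either direction with the fold change threshold), with medians of 0.48 and -0.17. At an unadjusted p under 0.05 by edgeR there were 3 replication genes and 0 mitosis genes, and 8104 of all 16208 genes. E2f1 (adjusted p = 0.0564), Cdt1 (0.0576), Mcm6 (0.107), Pola1 (0.128), Mcm2 (0.133) and Cenpf (0.245), which passed against all 6 organoids, did not pass against these 3 by edgeR. Against T-cM-titled organoids, 4 replication genes and 1 mitosis gene were higher, where 25.3% of all genes were, with medians of 0.77 and 0.14. Ccnd1 had 3.64 ± 0.33 (SE) and 3.50 ± 0.33 (SE) in these comparisons, E2f1 0.96 ± 0.36 (SE) and 1.29 ± 0.36 (SE), and Birc5 -0.83 ± 0.42 (SE) and -0.54 ± 0.42 (SE).

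The counts of members that passed in tumoroids depended on the libraries, the model and the scaling. Without tumoroid 1, 1 replication gene (Ccnd1) was higher (27.8% of all genes) and Birc5 was lower (log2 fold change -1.12) at an adjusted p under 0.05. Of all genes 7666 passed in that fit, 4506 of them higher. Without T-cM-titled replicate 1, 14 of 24 replication genes were higher (28.7% of all genes), and without WT-cM-titled replicate 1, 12 were (28.5%), shares above those of all genes. Leaving out T-cM-titled or WT-cM-titled replicate 2 left 2 replication genes (25.6% of all genes in each), and leaving out replicate 3 of either group left 3 (26.2% and 26.7%). With the replicate number as a block, 19 of 24 replication genes were higher, where 32.4% of all genes were. Of the 20 mitosis genes 2 were higher (Cenpf and Kif23) and 2 lower (Birc5 and Aurka), where 9008 of all genes passed, 5257 of them higher. On the deposited TPM, whose scale was 0.47 higher for tumoroids over the median gene, 18 of 24 replication and 2 of 20 mitosis genes were higher, where 47.4% of all genes were. The share of higher genes among all that passed was then 79.8%, against 58.7% in the counts, and 19 of 20 mitosis genes had values above 0, against 9 of 20. Relative to the median of all genes, replication genes were at 0.47 in the counts and 0.58 in TPM, and mitosis genes at -0.20 and -0.05.

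The balance of replication to mitosis genes inside a library does not depend on the scaling of that library. The median log2 CPM of the replication genes minus that of the mitosis genes was -0.89, -1.08 and -1.08 in T-cM-titled replicates 1, 2 and 3, and -0.83, -1.12 and -0.72 in WT-cM-titled ones. In tumoroids 1, 2 and 3 it was -0.11, 0.11 and -0.36, so that the tumoroids lay above all 6 organoids and the organoid groups overlapped. The number 1 organoids, with the highest levels of each list, were not apart from the others in this balance. As a difference of median log2 fold changes between the lists, the balance was 0.67 against all organoids, and 0.51 to 0.74 when any 1 library was left out. Since the lists were chosen with earlier results of these data known, no test is given.

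With wider lists of 41 further replication genes and 56 further mitosis genes, each taken whole, the balance was not seen. Their difference of median log2 fold changes in tumoroids was 0.10, and the difference of medians per library was 0.08, 0.36 and 0.53 in replicates 1, 2 and 3 of the T-cM-titled organoids, 0.07, -0.07 and 0.28 in those of the WT-cM-titled group and -0.10, 0.38 and -0.04 in tumoroids, with overlap between all groups. The roles pooled in these lists differed. In tumoroids against all organoids, median log2 fold changes were 0.59 for 24 fork proteins, 0.40 for 4 nucleotide synthesis genes and 0.21 for 13 origin genes. By role, the wider mitosis medians ran from 0.06 (mitotic control) to 0.42 (spindle, midzone and cytokinesis).

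**Figure D4:**
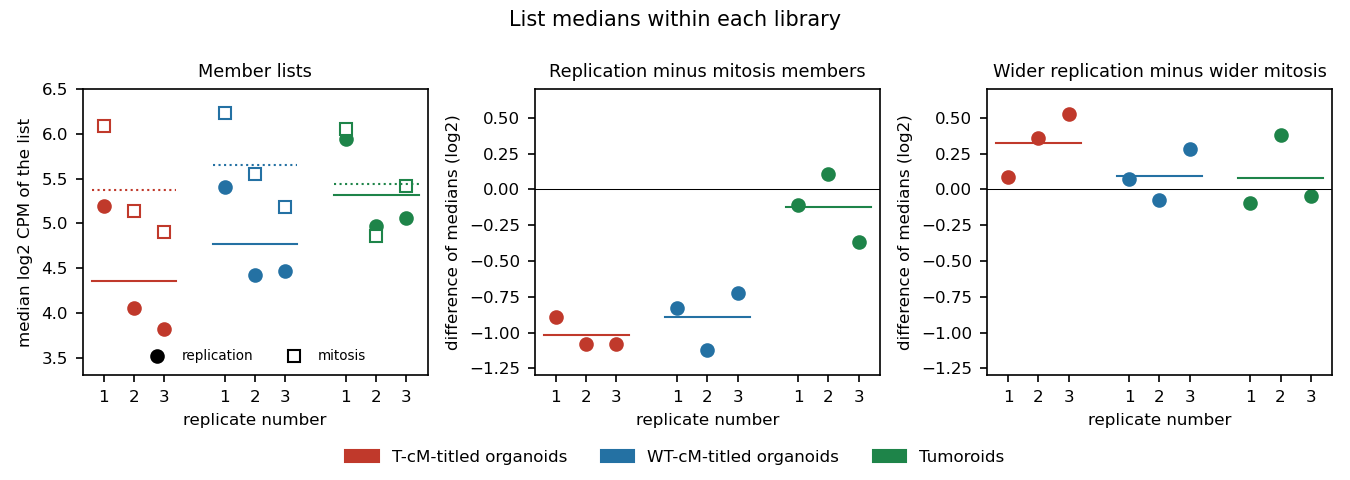
Left, median log2 CPM of the replication (filled circles) and mitosis genes (open squares) in each library. Middle and right, the difference of medians for the 44 members and for the wider lists (log2, lines are group means, n = 3): the tumoroids lie above the organoids, at -0.36 to 0.11 against -1.12 to -0.72, for the members only.

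In the wider lists, 11 of 41 replication genes and 24 of 56 mitosis genes were lower in T-cM-titled organoids at an adjusted p under 0.05, and 0 were higher, where 5.05% of all genes were lower and 5.03% higher. As for the members, these calls rest on the replicate block and on pair 2, without which 0 and 1 of all genes passed. The smallest p-values belonged to Uhrf1, which helps copy DNA methylation (106, 39.6 and 35.3 CPM against 142, 57.7 and 54.7 CPM, log2 fold change -0.52 ± 0.09 (SE)), and Dut, which removes dUTP (-0.57). In each of them the T-cM-titled library was below its partner in every pair. For mitosis they belonged to Ube2c, the ubiquitin-conjugating enzyme of mitotic exit (108, 47.1 and 49.5 CPM against 125, 88.6 and 70.5 CPM, -0.52 ± 0.10 (SE)), and Spc24, of the kinetochore (-0.61). Pold2 (-0.43), Lig1 (-0.35), Pbk (-0.51) and Ccnf (-0.51) were also lower.

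In tumoroids, 8 of 41 wider replication genes were higher and 2 lower, and 5 of 56 wider mitosis genes were higher and 1 lower, shares below the 29.6% and 20.8% of all genes. Rfc1, the large clamp loader subunit, was at 92.5, 75.2 and 91.1 CPM against 29 to 60.4 CPM in organoids, with no overlap (log2 fold change 1.06 ± 0.24 (SE)). Orc3, of the origin recognition complex (0.61), and Gins4 (0.64) were also higher without overlap. Hjurp, the chaperone that deposits the centromeric histone, was at 144, 119 and 132 CPM against 233 to 434 CPM and was lower (-1.31 ± 0.20 (SE), adjusted p = 0.000429, edgeR), while Ckap2 (1.18), Cenpm (1.57) and Ect2 (0.96) were higher.

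Among 25 further regulators of G1, 3 were lower and 1 higher in T-cM-titled organoids, where 5.05% of all genes were lower and 5.03% higher, and with so few genes nothing is read from the counts. The higher gene was Cdkn1c, which encodes the CDK inhibitor p57, at 5.55, 12.3 and 11.8 CPM against 3.57, 2.61 and 5.22 CPM, and the 3 T-cM-titled libraries were all above the 3 WT-cM-titled ones (log2 fold change 1.35 ± 0.20 (SE), adjusted p = 2.58e-05, edgeR). The lower genes were Ccnd2, which encodes cyclin D2 (302, 185 and 201 CPM against 362, 309 and 281 CPM, -0.48 ± 0.08 (SE)), its partner kinase Cdk4 (-0.30) and the inhibitor Cdkn2c (-0.51).

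In tumoroids, 9 of these 25 were higher and 3 lower, where 29.6% of all genes were higher and 20.8% lower, so that the genes that follow are given for their own values. Cdk6, another kinase partner of cyclin D, was at 159, 241 and 139.7 CPM against 19.9 to 30.4 CPM in organoids (2.87 ± 0.19 (SE)), and Myc, a growth regulator and known target of Wnt signalling, at 266, 292 and 204 CPM against 32 to 75.5 CPM (2.37 ± 0.26 (SE)). Neither gene overlapped between tumoroids and organoids, and Cdk4 (1.03) did not overlap either. Cdkn2a, the locus of the inhibitors p16 and p19ARF, had 203, 237 and 444 reads in tumoroids 1, 2 and 3 and 0 to 2 reads in each organoid library, so that no fold change is given. Rb1, the protein that holds E2F factors inactive, was lower, at 32.8, 41 and 44.1 CPM against 92.7 to 161 CPM (-1.60 ± 0.21 (SE)), and so was E2f2, at 20.4, 8.44 and 6.73 CPM against 70.0 to 109 CPM (-2.84 ± 0.37 (SE)).

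The tumoroids differed among themselves more in mitosis than in replication genes. Tumoroid 1 had the highest level of the 3 in 22 of 24 replication and 20 of 20 mitosis genes, as it had in 32.2% of all genes. Tumoroid 2 had the lowest level in 13 of 24 replication genes but in 20 of 20 mitosis genes, against 33.3% of all genes. The median log2 difference between tumoroids 1 and 2 was 0.58 for replication and 1.22 for mitosis genes. Plk1, at 59.9, 16.4 and 38.6 CPM, and Ccna2, at 124, 42.3 and 89.2 CPM, showed this order, whereas Mcm2, at 134, 95.7 and 90.7 CPM, and Pole, at 32.9, 28.8 and 30.2 CPM, were closer to level. These counts were noted after the values were seen and are a description of 3 cultures.

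Per length of transcript, Pcna was the most abundant member in organoids, at 157 to 218 TPM, and was at 214 to 290.1 TPM in tumoroids, where Ccnd1 passed it at 461, 938 and 585 TPM, having been at 27.2 to 57.3 TPM in organoids. Summed over the replication genes other than Ccnd1, the level was 468 to 1078 TPM in organoids and 1132 to 1587 TPM in tumoroids, but on the CPM scale it was 680.1 to 1583 in organoids and 1203 to 1888 in tumoroids, with overlap. The mitosis genes summed to 408 to 1212 TPM in organoids and 611 to 1304 TPM in tumoroids, with overlap. On the CPM scale the mitosis sums were 722 to 1973 in organoids and 792 to 1668.5 in tumoroids, and overlapped too.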

How the data were processed

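RNA was measured in 9 libraries made with a stranded, polyA-selecting kit. The authors aligned the reads to mm10 with STAR and deposited raw counts per gene of a Gencode annotation and a table of TPM, which the authors scaled by gene length. The counting tool, its strand setting and the lengths used are not given in the sources used here. The test covered genes that reached 1 TPM in any library.

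Counts were normalised with TMM in edgeR 4.0.16 (R 4.3.3) and tested by its quasi-likelihood fit, older form, with Benjamini-Hochberg adjustment. The threshold was an adjusted p of 0.05, with and without an absolute log2 fold change above 1. For the organoid groups the model held the replicate number, after the authors' model. Same-numbered organoid libraries deviated together (Pearson's r over genes of 0.55, 0.34 and 0.55). Tumoroids were compared over all 9 libraries without a block. Intervals are the estimate ± 1.96 SE. Alternatives were limma 3.58.1 voom, DESeq2 1.42.0, the newer quasi-likelihood form, RLE factors, no TPM filter, log2(TPM + 1) with limma, leaving out or adding the replicate number, leaving out each replicate, and wider gene lists. On simulated data of 16208 genes, log2 changes of 1.5 were planted in well-counted genes. They were recovered in 100% of cases between organoid groups and in 83% for tumoroids, with 2 and 8 false calls. Smaller changes, such as those of most members, were not planted. The simulated tumoroid comparison held no deviations shared by same-numbered cultures. Gene overlaps came from another release of the annotation on the same build.

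The members, gene lists and tests were chosen with earlier results of these data known. Named were 10 fixed genes (Mki67, Pcna, Mcm2, Mcm5, Ccne1, Ccnd1, E2f1, Cdk1, Ccnb1, Top2a), in each list the 6 members of smallest p and those with the highest and lowest value, and 4 genes of each further list, and other members are given by value to describe each role. Pole and Plk1 in tumoroids, Rfc3, Gins1, Cdc45, Ccne2, Cdc20, Bub1b, Ttk and E2f2 were named after their values were seen. The values of 1 gene that the rule on further lists named are not reported here.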

Additional observations from a re-analysis of the deposited data

How the results depend on the processing

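Between the organoid groups, 179 of all genes were called, and 89 with DESeq2, 104 with limma voom, 0 on log2(TPM + 1), 0 without the replicate block, 1634 with no fold change threshold, and 1 to 385 with a replicate left out. Of the 9 replication and 14 mitosis genes that were lower (0 and 0 with the fold change threshold), DESeq2 kept 4 and 7 and voom 4 and 3, while the newer quasi-likelihood form had 6 and 9 (1047 of all genes passed, against 1634). The counts were 0 and 0 on log2(TPM + 1), 0 and 0 without the replicate block, and 0 to 12 and 0 to 18 with a pair left out, lowest without pair 2 (1 of all genes) and highest without pair 1 (2872 of all genes). The medians stayed negative throughout. Pcna ran from -0.0049 to 0.084 with a pair left out.

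In tumoroids against all organoids, 8165 genes passed with no fold change threshold, against 5363 with it, and then 1 mitosis gene. On log2(TPM + 1), 18 replication and 2 mitosis genes were higher (47.4% of all genes) and 17 and 1 were called (5317 of all genes, in either direction), while RLE factors left 0 mitosis genes. With 1 library left out, 1 to 14 replication genes were higher and 1 to 8 called, and 0 to 1 mitosis genes were higher and 0 to 1 called, where 25.6% to 28.7% of all genes were higher and 5006 to 5368 called. On log2(TPM + 1), the members below 0 went from 3 to 0 replication and from 11 to 1 mitosis genes. Those that turned round included Pcna (0.39), Rrm2 (0.36) and Ccne2, and Mki67 (0.39), Ccnb1 (0.12), Ccna2 (0.11) and Aurka (0.027). With 1 library left out, Mki67 ran from -0.38 to 0.026, Rrm2 from -0.48 to 0.073 and Cdk1 from -0.067 to 0.57. The cause of these turns was not tested.

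The replicate number was also tried as a block for tumoroids, although same-numbered tumoroids and organoids did not all deviate together (r of -0.07 to 0.20). With the replicate block, 19 replication and 2 mitosis genes were higher against all organoids, 14 (3 called) and 1 against WT-cM-titled, and 20 (7 called) and 4 against T-cM-titled ones, where 32.4%, 27.1% and 29.1% of all genes were higher. In the same order, 2, 2 and 1 mitosis genes were lower, where 9008, 7770 and 8171 of all genes passed in either direction. Against WT-cM-titled and T-cM-titled organoids, 30.7% and 32.1% of all genes were called in either direction. Limma voom had 2 replication genes higher against WT-cM-titled organoids, where 23.1% of all genes were. With a tumoroid left out, these 2 comparisons gave 1 to 2 and 1 to 4 replication genes, and 0 to 1 mitosis genes called in each and 0 to 1 higher in the latter, where 21.3% to 23.2% and 23.1% to 24.1% of all genes were higher. In place of the members, the wider lists gave a difference of medians of 0.10 against all organoids, 0.22 against WT-cM-titled and 0.085 against T-cM-titled ones.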
